A study of Mus musculus with 18 samples.

Results

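Microglia keep their identity through a small set of transcription factors, and 9 of these genes are described here among the 35869 gene symbols that every file listed: Sall1, Sall3, Mef2a, Mef2c, Spi1, Irf8, Maf, Runx1 and Cebpa. The rule names the genes and sets no threshold on a value, but the list was drawn up with earlier results of these data known; all 9 were found. Libraries came from microglia and astrocytes that were enzymatically released from brain and sorted by flow cytometry. KO microglia (n = 4) and KO astrocytes (n = 4) came from Cx3cr1CreERT2-Tgfb1fl/fl mice, and control microglia (n = 4) and control astrocytes (n = 5) from Cx3cr1CreERT2 mice without the loxP-flanked Tgfb1 alleles. All mice were on a C57BL/6 background, carried the CreERT2 recombinase and received 5 oral doses of tamoxifen at 180 mg/kg. The labels give no age and no interval after tamoxifen. Cx3cr1 drives the recombinase in microglia and in other brain macrophages, so astrocytes of KO mice are not themselves the target of the deletion. Values are TPM (a transcript abundance scaled for gene length and for the whole library). Levels of different genes are set side by side as TPM only, since the annotation and multi-mapping behind them are not given. One more library, whose title and sample code name different cell types, entered no comparison.

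PU.1 (gene Spi1) and IRF8 are lineage factors of macrophages that open and hold myeloid enhancers together, and RUNX1 and C/EBPα act earlier, in blood and myeloid development. SALL1 is a zinc finger factor that marks microglia among macrophages, and SALL3 is its paralog. MEF2A and MEF2C are MADS-box factors that bind active microglial enhancers, and c-MAF is a large MAF family factor shared by tissue macrophages. TGF-β signals through SMAD factors, which cooperate with these proteins at microglial enhancers. Loss of TGF-β signalling is known to lower Sall1 in microglia.

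The sorts and the animals were checked before the factors were read. Summed TPM of 12 microglial markers lay between 24531 and 26466 in KO microglia and between 58614 and 60934 in control microglia, against 278.9 to 724.7 in KO astrocytes and 321.5 to 440.3 in control astrocytes. No microglial marker was listed at 0 in a whole group. Tgfb1, the targeted gene, had 1.8, 1.3, 1.7 and 2.0 TPM in KO microglia and 3.4, 2.9, 2.9 and 2.8 TPM in control microglia (exact two-sided permutation test, p = 0.0286, the smallest that 70 assignments allow). In all 8 KO libraries and those of control animals 1 and 2, Xist lay between 28.6 and 48.3 TPM and the Y-linked gene Ddx3y at 0.1 TPM or less. Control animals 3, 4 and 5 had 0 TPM of Xist and 46.0 to 56.3 TPM of Ddx3y. Genotype and this split are mixed in part, so the main effects in microglia are also given with either pair of controls alone.

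The first comparison set KO microglia against control microglia, to see which identity factors depend on Tgfb1 of Cx3cr1-expressing cells. Sall1, Sall3 and Mef2a fell in KO microglia and Maf rose, while Mef2c, Spi1, Irf8, Runx1 and Cebpa did not pass the test. That is 4 of 9 factors past an adjusted p of 0.05 (limma on log2(TPM + 1), Benjamini-Hochberg), beside 28.4% of all 13054 genes tested. By direction, 3 of 9 fell against 14.2% of all genes, and 1 of 9 rose against 14.2%. The median difference over the 9 factors was -0.14 on the log2 scale and over all genes 0.004. The same 4 factors were those whose ranges did not overlap between the groups, which held for 30.6% of all genes tested. The libraries measure RNA per sorted population, so fewer cells carrying a factor and less RNA per cell cannot be told apart.

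**Figure D1:**
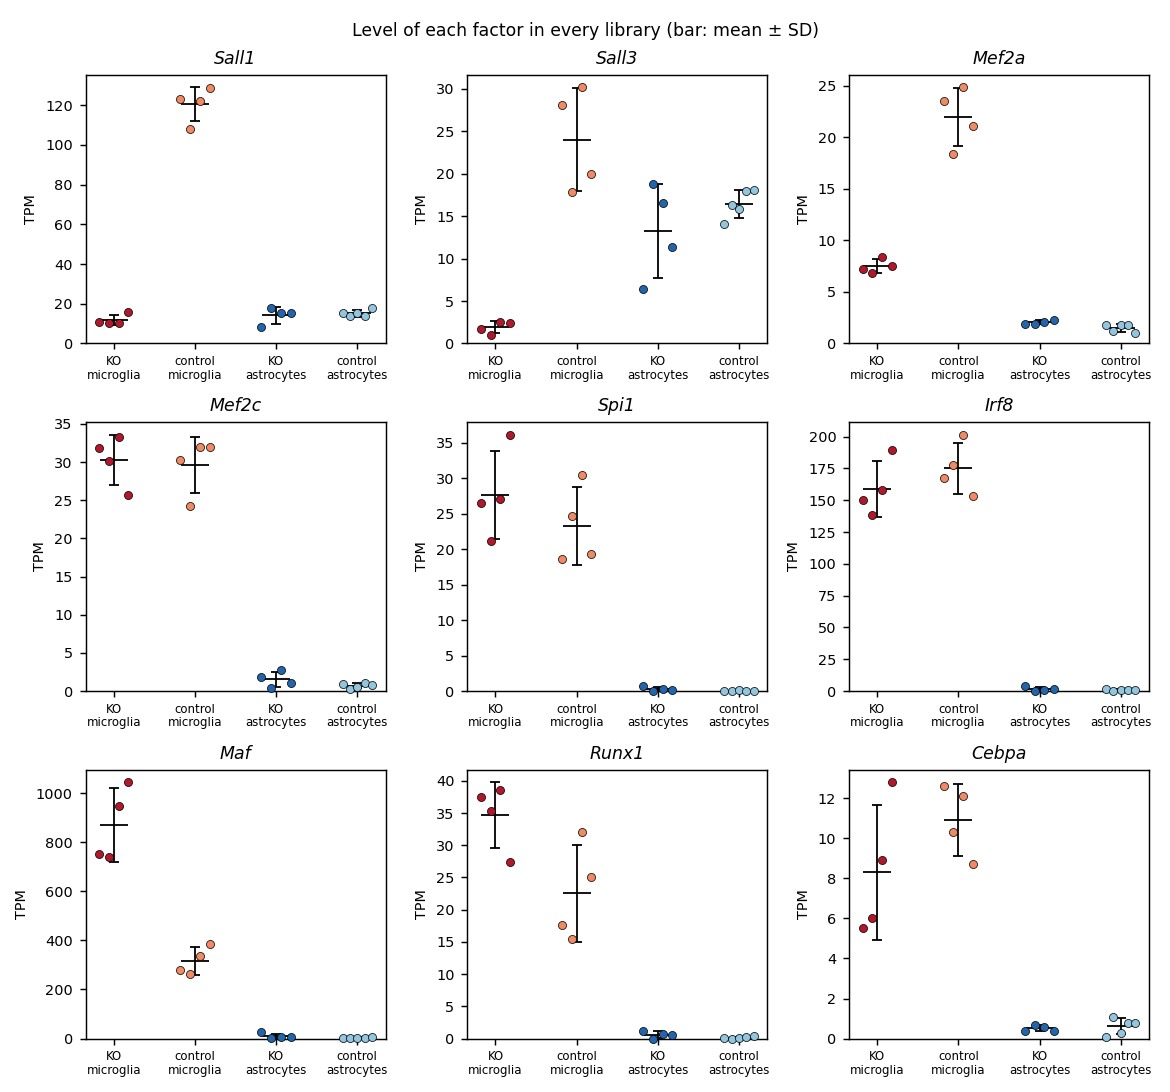
TPM of each of the 9 factors in every library, 1 panel a gene with its own linear axis starting at 0; points are libraries and bars the mean with its SD (n = 4, 4, 4 and 5 from left to right). Sall1 in KO microglia (10.2 to 15.8 TPM) sits at the astrocyte level, far below control microglia (108.2 to 128.8 TPM), while Maf in KO microglia (738.3 to 1044 TPM) sits above control microglia (263.7 to 386.1 TPM).

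Sall1 had 10.7, 10.2, 10.5 and 15.8 TPM in KO microglia, against 123.0, 108.2, 122.3 and 128.8 TPM in control microglia. Every KO library was far below every control library, and KO animal 4 was the highest of its group. The means were 11.8 ± 2.67 TPM in KO microglia and 121 ± 8.75 TPM in control microglia (SD, n = 4 each), so that control microglia held 10.2 times the KO level. The log2 difference of -3.27 (SE 0.15, limma adjusted p = 4.9e-07) placed Sall1 at position 62 from the bottom of 13054 genes.

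Sall3, the paralog of Sall1, fell as well. It had 1.7, 1.0, 2.5 and 2.4 TPM in KO microglia, against 28.1, 17.8, 30.2 and 19.9 TPM in control microglia. All KO libraries were far below all control libraries, and among controls animals 1 and 4 were higher than animals 2 and 5. The log2 difference was -3.11 (SE 0.24, adjusted p = 1.2e-05), at position 74 from the bottom, and control microglia held 12.6 times the KO mean.

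Mef2a had 7.2, 6.8, 8.4 and 7.5 TPM in KO microglia, against 23.5, 18.4, 24.9 and 21.1 TPM in control microglia. The groups stood apart with little spread in the KO group (coefficient of variation 9.1%). The log2 difference was -1.43 (SE 0.14, adjusted p = 5.6e-05), a KO mean at 0.340 of the control mean. Lysmd4, which overlaps Mef2a on the opposite strand, averaged 6.70 TPM in KO microglia and 3.28 TPM in control microglia. Its paralog Mef2c had 31.9, 30.2, 33.3 and 25.7 TPM in KO microglia, against 30.3, 24.2, 32.0 and 32.0 TPM in control microglia. Here the groups overlapped throughout, with a log2 difference of 0.033 and a 95% interval from -0.27 to 0.33 (adjusted p = 0.890). Of these MEF2 genes Mef2a fell and Mef2c did not pass.

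Maf had 749.8, 738.3, 945.7 and 1044 TPM in KO microglia, against 280.3, 263.7, 336.2 and 386.1 TPM in control microglia. It was the most abundant of the 9 factors in both groups, and its lowest KO value was well above its highest control value. The log2 difference was 1.45 (SE 0.15, adjusted p = 9.0e-05), a ratio of means of 2.75. With control animals 1 and 2 alone the difference was 1.66 (adjusted p = 2.7e-04) and with animals 4 and 5 alone 1.25 (adjusted p = 8.6e-04). The falls passed with either pair too: with animals 1 and 2, and then 4 and 5, they were -3.21 and -3.33 for Sall1, -3.05 and -3.17 for Sall3, and -1.37 and -1.50 for Mef2a.

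Runx1 had 37.5, 35.3, 38.6 and 27.4 TPM in KO microglia, against 17.7, 15.5, 32.1 and 25.0 TPM in control microglia. KO animals 1, 2 and 3 were above every control, but KO animal 4 lay between control animals 5 and 4. The log2 difference of 0.64 (SE 0.22) missed the threshold with an adjusted p of 0.0595. This value depended on the controls. Against control animals 1 and 2, which resemble the KO animals in Xist and Ddx3y, it was 1.01 (adjusted p = 0.00562), and against animals 4 and 5 it was 0.27 (adjusted p = 0.298). It also passed without control animal 4 (0.82, adjusted p = 0.0156), with a filter of 5 TPM (adjusted p = 0.0470), with median-of-ratios scaling (0.0354) and with quantile normalization (0.0283).

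The lineage factors of macrophages and Cebpa did not pass the test. Spi1 had 26.5, 21.1, 27.0 and 36.1 TPM in KO microglia, against 18.6, 24.6, 30.5 and 19.3 TPM in control microglia (log2 difference 0.24, 95% interval -0.21 to 0.70, adjusted p = 0.423). Irf8 had 150.1, 138.5, 158.1 and 189.9 TPM in KO microglia, against 167.8, 177.9, 201.4 and 153.0 TPM in control microglia (log2 difference -0.14, 95% interval -0.42 to 0.14, adjusted p = 0.457). For both genes the group ranges overlapped widely, and the intervals hold no change as large as those of Sall1, Sall3, Mef2a or Maf. Cebpa had 5.5, 6.0, 8.9 and 12.8 TPM in KO microglia, against 12.6, 10.3, 12.1 and 8.7 TPM in control microglia. Its KO libraries spread from below the lowest to above the highest control (coefficient of variation 40.4% against 16.3%), and the interval from -0.98 to 0.15 was the widest of the 9 (log2 difference -0.41, adjusted p = 0.264).

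**Figure D2:**
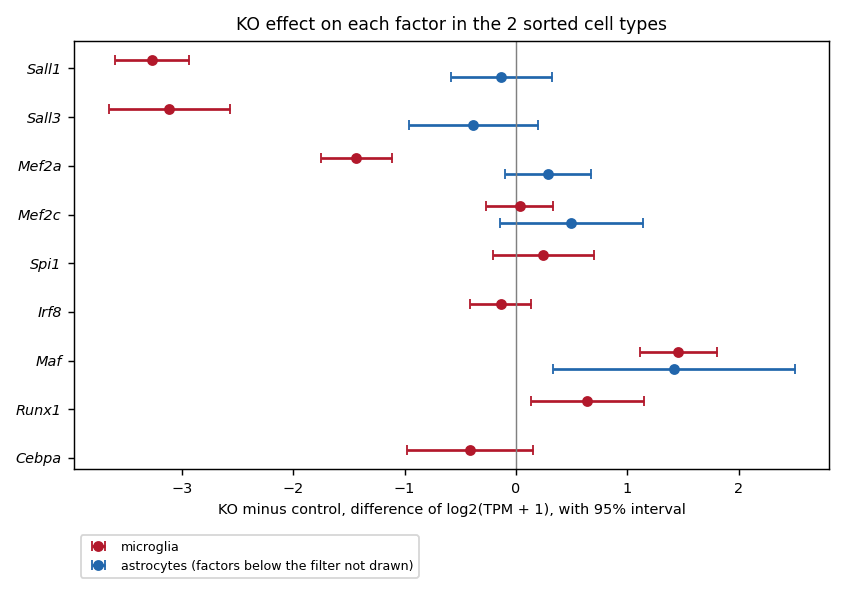
Difference of log2(TPM + 1), KO minus control, with its 95% interval from limma (x axis), for each factor (y axis) in microglia (n = 4 against 4) and astrocytes (n = 4 against 5). In microglia the intervals of Sall1, Sall3 and Mef2a lie below 0 and that of Maf above 1; Runx1 also clears 0 before adjustment over all genes (adjusted p = 0.0595).

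The order of the factors within microglia changed accordingly. In KO microglia the order by mean TPM was Maf (869), Irf8 (159), Runx1 (34.7), Mef2c (30.3), Spi1 (27.7), Sall1 (11.8), Cebpa (8.30), Mef2a (7.47) and Sall3 (1.9). In control microglia it was Maf (317), Irf8 (175), Sall1 (121), Mef2c (29.6), Sall3 (24.0), Spi1 (23.2), Runx1 (22.6), Mef2a (22.0) and Cebpa (10.9). Neighbours from Runx1 to Spi1 and from Sall1 to Mef2a had overlapping ranges in KO microglia, as had neighbours from Mef2c to Mef2a in control microglia. Sall1 stood behind Maf and Irf8 in control microglia, separate from both neighbours, and behind Spi1 in KO microglia.

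In the GENCODE M21 annotation of GRCm38 the factors are protein-coding genes, with Sall1 at chr8:89027235-89044162, Mef2a at chr7:67231163-67372858 and Runx1 at chr16:92601466-92826149 on the minus strand. Maf also lies on the minus strand, at chr8:115682942-115707794. On the plus strand are Mef2c at chr13:83504034-83667080, Spi1 at chr2:91082390-91115756, Irf8 at chr8:120736358-120756694 and Cebpa at chr7:35119293-35121928.

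Promoter windows are shown for Sall1 and Mef2a, which fell, and for Runx1 and Irf8, which did not pass the test. The 5 windows shown are examples of the 12 at hand. The sequences come from RefSeq (build GRCm38.p6) and run 5′ to 3′ on the gene's strand, from 250 bases before to 50 bases after an annotated start. The 12 windows at hand belong to 6 of the factors: Sall1, Mef2a, Mef2c, Irf8, Runx1 and Cebpa. Capitals mark matches on either strand to CAGAC (the SMAD box), GAGGAA (an ETS core as bound by PU.1), TGTGGT (RUNX), TTGCNNAA (C/EBP), the MEF2 element (CTA and TAG, 4 bases apart) or the IRF repeat (2 GAAA, 2 bases apart), and no matches overlap in the windows printed.
Sall1, most upstream start, chr8:89044113-89044412, minus strand: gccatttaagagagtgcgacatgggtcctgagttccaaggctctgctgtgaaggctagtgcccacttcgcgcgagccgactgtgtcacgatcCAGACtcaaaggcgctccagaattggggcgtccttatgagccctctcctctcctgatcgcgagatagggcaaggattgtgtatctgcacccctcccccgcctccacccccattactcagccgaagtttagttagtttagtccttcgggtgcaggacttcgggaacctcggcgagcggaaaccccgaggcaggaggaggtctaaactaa
Mef2a, chr7:67372809-67373108, minus strand: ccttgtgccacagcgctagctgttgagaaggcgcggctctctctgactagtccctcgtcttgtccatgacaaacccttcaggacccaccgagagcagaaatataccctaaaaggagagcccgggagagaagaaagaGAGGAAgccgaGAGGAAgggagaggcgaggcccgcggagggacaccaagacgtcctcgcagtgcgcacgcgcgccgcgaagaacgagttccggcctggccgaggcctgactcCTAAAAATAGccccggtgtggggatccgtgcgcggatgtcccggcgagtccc
Runx1, distal start, chr16:92826025-92826324, minus strand: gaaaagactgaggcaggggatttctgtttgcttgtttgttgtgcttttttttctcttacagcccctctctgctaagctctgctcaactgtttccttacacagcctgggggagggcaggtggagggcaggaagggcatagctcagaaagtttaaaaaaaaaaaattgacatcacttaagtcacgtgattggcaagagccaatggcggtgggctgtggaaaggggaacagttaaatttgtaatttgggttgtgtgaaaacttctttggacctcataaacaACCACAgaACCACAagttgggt
Runx1, proximal start, chr16:92697280-92697579, minus strand: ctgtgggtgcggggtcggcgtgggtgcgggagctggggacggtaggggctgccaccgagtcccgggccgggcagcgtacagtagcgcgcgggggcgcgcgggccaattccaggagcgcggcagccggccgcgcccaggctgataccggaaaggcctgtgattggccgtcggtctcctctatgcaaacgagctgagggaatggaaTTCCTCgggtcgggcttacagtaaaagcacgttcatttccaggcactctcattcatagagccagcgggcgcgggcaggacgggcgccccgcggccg
Irf8, most upstream start, chr8:120736108-120736407, plus strand: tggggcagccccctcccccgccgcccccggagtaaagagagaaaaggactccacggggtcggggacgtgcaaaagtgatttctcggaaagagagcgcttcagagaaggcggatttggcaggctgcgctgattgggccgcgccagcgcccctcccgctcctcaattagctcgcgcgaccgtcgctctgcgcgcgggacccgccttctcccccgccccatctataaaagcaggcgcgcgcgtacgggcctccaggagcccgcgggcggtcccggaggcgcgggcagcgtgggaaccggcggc

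The Sall1 window held 1 SMAD box, whose first base lies at -158 from the start, and its 2 downstream windows held no match. The Mef2a window held 2 ETS cores, at -114 and -103, and 1 MEF2 match at -2, so that a MEF2 sequence lies across the start of a MEF2 gene. The distal Runx1 window held 2 RUNX matches, at 28 and 36 bases past the start, and the proximal window 1 ETS core at -46. The Irf8 window printed held no match, and its other window held 1 SMAD box, at -28. Of the windows not printed, all 3 of Mef2c, which did not pass the test in microglia, held a SMAD box and 2 of them also an ETS core, and that of Cebpa held no match. Matches thus occurred in factors that fell and in factors that did not pass. Of all 32851 promoter windows, 49.6% held a SMAD box, 28.3% the ETS core, 16.8% the RUNX letters, 10.8% the C/EBP letters, 3.69% the MEF2 letters and 3.44% the IRF repeat. A match is a description of the letters only, and the files hold no binding data.

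Astrocyte libraries were compared in the same way, to see whether the factors differed in cells that were not the target of the recombinase. None of the 5 factors that could be tested passed (limma), while 0.00657% of 15231 genes tested did, a single gene. At an unadjusted p under 0.05, only Maf would count among the 5 (limma, unadjusted p = 0.0153). Sall1 had 8.3, 18.1, 15.2 and 15.2 TPM in KO astrocytes, against 15.2, 13.9, 15.3, 13.7 and 17.8 TPM in control astrocytes (log2 difference -0.13, 95% interval -0.59 to 0.32, adjusted p = 0.805). KO animal 1 was the only low library, and without it the difference was 0.087. Sall3 had 6.4, 18.8, 16.5 and 11.3 TPM in KO astrocytes, against 14.1, 16.3, 15.8, 17.9 and 18.1 TPM in control astrocytes (log2 difference -0.38, adjusted p = 0.541). KO animals 1 and 4 were below every control here and KO animal 2 above every control.

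Mef2a had 1.9, 1.9, 2.1 and 2.3 TPM in KO astrocytes, against 1.8, 1.2, 1.8, 1.8 and 1.0 TPM in control astrocytes. The ranges did not overlap, as for 4.4% of all genes tested, yet the log2 difference of 0.29 did not pass (adjusted p = 0.494). Mef2c had 1.9, 0.4, 2.7 and 1.1 TPM in KO astrocytes, against 0.9, 0.3, 0.5, 1.0 and 0.8 TPM in control astrocytes (log2 difference 0.50, adjusted p = 0.472). Maf had 25.1, 4.1, 7.8 and 5.6 TPM in KO astrocytes, against 0.7, 2.3, 2.5, 3.9 and 4.5 TPM in control astrocytes. The log2 difference of 1.42 had an SE of 0.49 and did not pass (adjusted p = 0.336), and without KO animal 1 it was 0.93. Spi1, Irf8, Runx1 and Cebpa stayed below the filter of 1 TPM in 4 libraries, with at most 0.7, 3.7, 1.2 and 0.7 TPM in KO astrocytes and 0.1, 1.9, 0.4 and 1.1 TPM in control astrocytes. Exact two-sided permutation tests of the 4 genes gave p = 0.0873, 0.413, 0.127 and 0.802. Without KO astrocyte animal 2 the exact permutation tests gave p = 0.0357 for Spi1 and 0.0179 for Runx1.

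In KO astrocytes, RNA of other cells moved with some of these values. KO astrocyte library 1, the one with the highest Maf, Spi1, Irf8 and Runx1 and the lowest Sall1 and Sall3, also had the highest sum of the 12 microglial markers (724.7 TPM, against 278.9 to 364.1 TPM in the other KO and 321.5 to 440.3 TPM in control astrocytes). Its 11 border-associated macrophage markers summed to 119 TPM, against 20.4 to 44.4 TPM in the other KO and 11.5 to 27.8 TPM in control astrocytes. Mural and fibroblast markers, 9 genes, summed to 3234, 478, 4814 and 1824 TPM in KO astrocytes, in the same order of animals as Mef2c. In control astrocytes they summed to 213.6, 117.5, 485.6, 1614 and 1431 TPM, which is not the order of Mef2c. Control astrocyte library 1 had the highest Irf8 of its group (1.9 TPM) but the lowest sum of microglial markers (321.5 TPM). Oligodendrocyte markers, 9 genes, summed to 8648, 6566, 7282 and 16654 TPM in KO astrocytes and to 4588 to 6915 TPM in control astrocytes. KO astrocyte library 4, the highest in oligodendrocyte markers and the next lowest in Sall3 (11.3 TPM), had the lowest sum of the 10 astrocyte markers, 22895 TPM, against 26779 to 40246 TPM in the other KO and 31513 to 35448 TPM in control astrocytes. The part of this RNA in the values of the factors was not tested.

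The KO effects in the cell types were set against each other in 1 fit over 17 libraries. The difference of the effects passed for Sall1 (-3.13, SE 0.26, limma adjusted p = 3.2e-07), Sall3 (-2.73, SE 0.37, adjusted p = 6.8e-05) and Mef2a (-1.72, SE 0.20, adjusted p = 1.4e-05), each lower in microglia. These are 3 of 9 factors, beside 15.5% of 17087 genes, 6.63% higher and 8.87% lower. For Maf the difference was 0.035 with a 95% interval from -1.17 to 1.24 (adjusted p = 0.977), so the data set no narrow limit on how its effect differed between the cell types. Mef2c, Spi1, Irf8, Runx1 and Cebpa did not pass either.

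Control mice show which of the cell types carries each factor. Sall1, Sall3, Mef2a and Maf passed as higher in control microglia than in control astrocytes. Mef2c, Irf8 and Cebpa did so as well. In control astrocytes, however, Mef2c reached 1 TPM only in animal 4 (1.0 TPM), Irf8 only in animal 1 (1.9 TPM) and Cebpa only in animal 2 (1.1 TPM). These genes thus met the filter mainly through control microglia, which left little room for the other direction. Spi1 and Runx1 reached the filter of 1 TPM through control microglia alone, so that their direction was fixed by the filter and their differences are given as a description. Of all 15332 genes tested 65.7% were called, 26.2% higher and 39.5% lower. The log2 differences were 6.71 for Irf8, 6.49 for Maf, 4.55 for Spi1, 4.30 for Runx1, 4.18 for Mef2c, 3.19 for Mef2a, 2.91 for Sall1 and 2.91 for Cebpa, with adjusted p from 3.0e-09 to 8.2e-07 (limma). Sall3 was the exception in size, at 24.0 ± 6.07 TPM in control microglia (SD, n = 4) and 16.4 ± 1.64 TPM in control astrocytes (SD, n = 5). Its log2 difference was 0.49 (SE 0.17, adjusted p = 0.0288), its ranges overlapped, and with the animal as a block it did not pass (adjusted p = 0.0738). The call on Sall3 also ended without control microglia of animal 1 (adjusted p = 0.0836) or 4 (0.0931) and without control astrocytes of animal 1 (0.0617) or 3 (0.0560). The ranges stood apart for the other factors, Spi1 and Runx1 among them, as for 56.4% of all genes.

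In KO mice the picture for the SALL genes was different. Sall1 had 11.8 ± 2.67 TPM in KO microglia and 14.2 ± 4.16 TPM in KO astrocytes (SD, n = 4 each), and the difference between the cell types did not pass (-0.22, 95% interval -0.76 to 0.32, adjusted p = 0.433). Sall3 had 1.9 ± 0.698 TPM in KO microglia and 13.2 ± 5.54 TPM in KO astrocytes (SD, n = 4 each), now lower in microglia (-2.23, SE 0.32, adjusted p = 1.6e-04). Mef2a was still higher in KO microglia, by 1.47 (SE 0.13, adjusted p = 6.4e-06). The other 6 factors were higher in KO microglia by 2.55 (Cebpa) to 6.52 (Maf). Of these, Spi1 and Cebpa reached the filter through KO microglia alone, which fixed their direction. In KO astrocytes Runx1 reached 1 TPM only in animal 1 (1.2 TPM) and Irf8 only in animals 1 (3.7 TPM) and 4 (1.4 TPM). The filter thus left little room for the other direction in Runx1 and Irf8. Of all 15365 genes 69.4% were called, 26.4% higher and 42.9% lower. The ranges stood apart for all factors but Sall1, as for 65.3% of all genes. The KO and control comparisons use different libraries, and the test of how the cell type difference changes with genotype is the difference of effects given above.

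**Figure D3:**
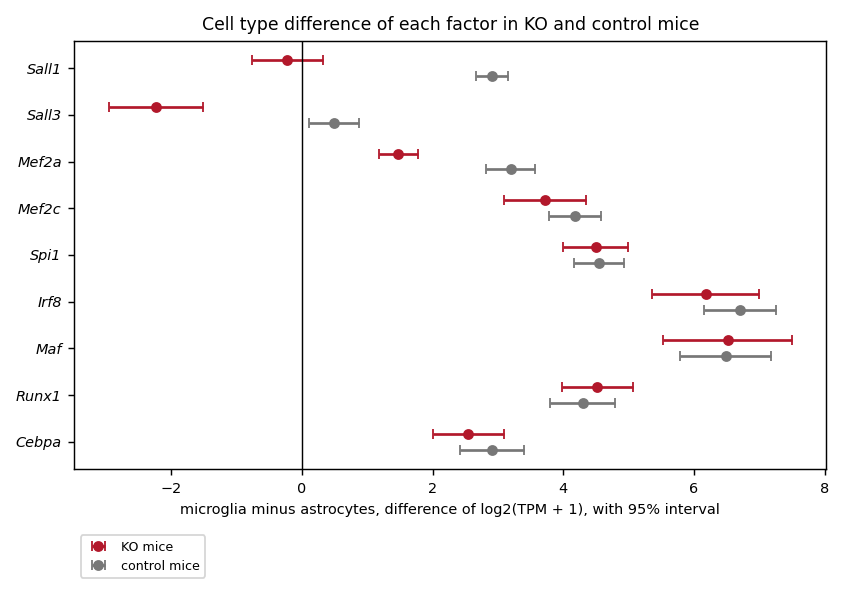
Difference of log2(TPM + 1), microglia minus astrocytes, with its 95% interval from limma (x axis), for each factor (y axis) in KO mice (n = 4 against 4) and control mice (n = 4 against 5). Sall1 moves to -0.22 in KO mice, against 2.91 in control mice, and Sall3 to -2.23, against 0.49; the other factors stay above 1.

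Astrocyte libraries could hold microglial RNA, so the astrocyte level of each factor was expressed as a share of its microglial level beside the same share for the 12 microglial markers. The markers lay between 0.445% and 9.33% in KO mice (median 0.709%) and between 0.0637% and 1.14% in control mice (median 0.155%). Sall3 lay at 697% in KO mice and 68.5% in control mice, Sall1 at 120.3% and 12.6%, and Mef2a at 27.4% and 6.92%, all above every marker. Cebpa (6.33% in KO mice and 5.68% in control mice) and Mef2c (5.04% and 2.36%) were above every marker in control mice and within the marker range in KO mice. Spi1 (0.994% and 0.0860%), Irf8 (0.943% and 0.434%), Maf (1.23% and 0.878%) and Runx1 (1.73% and 0.709%) were within the marker range in both. Values near 0.1 TPM are at the last decimal of the files, so the shares of Spi1 and Runx1 in control mice are coarse.

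**Figure D4:**
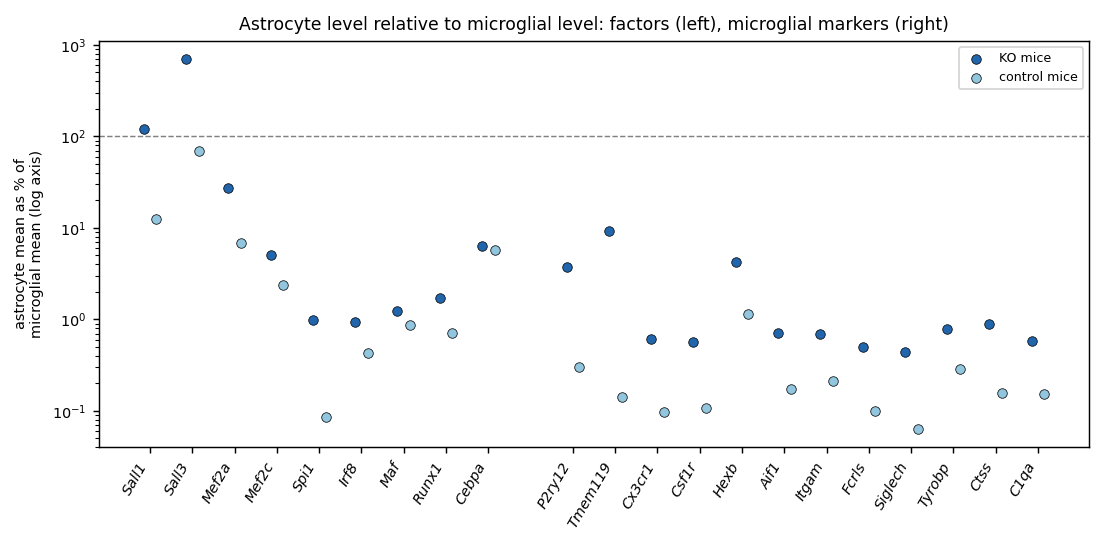
Mean astrocyte TPM as a percent of mean microglial TPM (log axis; dashed line, 100%) for the 9 factors on the left and 12 microglial markers on the right, in KO mice (n = 4 in each cell type) and control mice (n = 5 astrocyte and 4 microglial libraries). Sall1, Sall3 and Mef2a lie above all markers in both genotypes, while Spi1, Irf8, Maf and Runx1 lie among them.

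Genes of the factors' families were examined as lists of 46 genes in all, of which 32 were expressed enough in microglia to be tested. The lists also hold genes that are no paralogs, among them Cbfb, a partner of RUNX proteins, and Cebpz, which shares the C/EBP name without being a bZIP factor. In KO microglia 4 rose, 8 fell and 20 did not pass (limma), 37.5% called beside 28.4% of all genes, with a median log2 difference near 0. Sall2, the only other SALL gene tested, fell to 2.45 ± 0.597 TPM in KO microglia, against 4.77 ± 0.925 TPM in control microglia (SD, n = 4 each; -0.74, adjusted p = 0.0187). Mef2d, another MEF2 gene, was at 2.10 ± 0.825 TPM in KO microglia and 2.38 ± 0.377 TPM in control microglia (SD, n = 4 each; adjusted p = 0.660).

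The ETS family to which Spi1 belongs had 2 genes that rose, 3 that fell and 9 that did not pass of 14 tested. Spic, a close relative of Spi1 known from iron-recycling macrophages of the spleen, rose to 249 ± 27.2 TPM in KO microglia, against 3.17 ± 2.13 TPM in control microglia (SD, n = 4 each). At 6.06 on the log2 scale this stood at position 2 from the top of all genes tested, and Spic thereby exceeded Spi1 itself, which had 27.7 TPM in KO microglia. Ets2, a factor downstream of growth factor signalling, rose by 1.63 (adjusted p = 1.9e-04), whereas Ets1, best known from lymphocytes, fell by 1.85 (4.0e-05) and Elk3, a partner of serum response factor, fell by 1.30 (0.00193).

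Of 7 tested relatives of Irf8, 2 rose, 1 fell and 4 did not pass. Irf7, which amplifies the type I interferon response, rose to 64.7 ± 15.4 TPM in KO microglia, against 5.60 ± 3.14 TPM in control microglia (SD, n = 4 each; 3.40, adjusted p = 4.3e-05). Irf9, the DNA-binding part of the complex activated by type I interferon, rose by 0.80 (adjusted p = 9.8e-04) and Irf5, a mediator of inflammatory cytokine genes, fell by 0.73 (9.4e-04).

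Mafg and Mafk, small MAF genes that pair with other bZIP factors, did not pass in KO microglia (limma). Cbfb, the shared partner subunit of RUNX proteins, was at 15.8 ± 2.14 TPM in KO microglia and 13.9 ± 1.64 TPM in control microglia (SD, n = 4 each; adjusted p = 0.449), and Runx2 and Runx3 were below the filter. In the C/EBP list of 5 tested genes 2 fell: Cebpz, no bZIP factor, by 1.06 (adjusted p = 6.2e-05) and Cebpg by 0.86 (2.2e-04), while Cebpb and Cebpd did not pass.

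**Figure D5:**
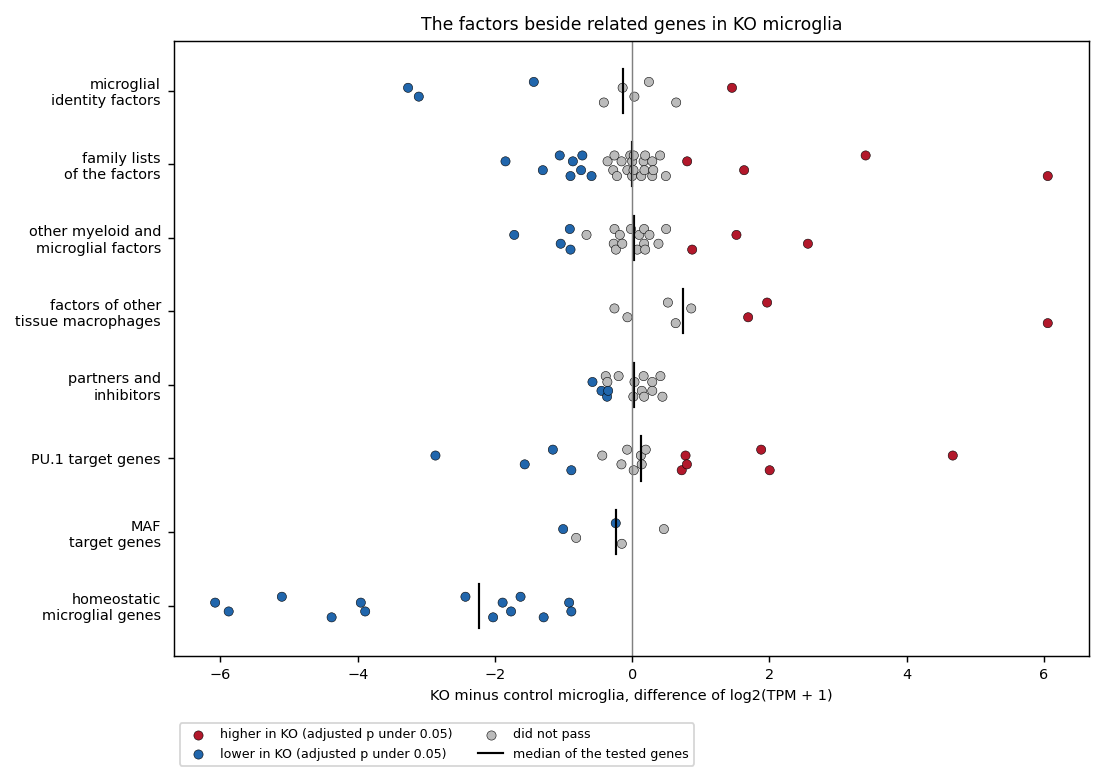
Difference of log2(TPM + 1), KO minus control microglia (x axis; n = 4 each), of each tested gene in 8 gene lists (y axis); points are genes, coloured by limma adjusted p under 0.05 and direction, and black lines the list medians. All 14 homeostatic genes lie below 0, whereas the factors, their family lists and the PU.1 targets lie on both sides.

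Of 22 tested genes for other myeloid and microglial factors, 3 rose and 4 fell, and 15 missed the threshold (31.8% called, beside 28.4%; median 0.029). Klf6, an early response zinc finger gene, rose by 0.87 (limma adjusted p = 5.4e-05), and Tfec, a macrophage relative of Mitf, rose to 3.15 ± 0.520 TPM in KO microglia, against 0.475 ± 0.359 TPM in control microglia (SD, n = 4 each). Tfec reached the filter through KO microglia alone, which fixed its direction. Hhex, a homeobox factor of blood cells, fell by 0.91 (adjusted p = 1.5e-04) and Bhlhe41, a repressor known from the circadian clock and from macrophages, by 1.72 (0.00136). Among 8 tested factors that mark macrophages of other tissues, Spic rose and 5 missed the threshold. The remaining genes were at or near 0 in control microglia and reached the filter through KO microglia alone, so that they could only be higher there. They were Pparg, a lipid-sensing receptor of alveolar macrophages, at 3.07 ± 0.842 TPM in KO microglia and 0.0250 ± 0.05 TPM in control microglia (SD, n = 4 each), and Ahr, the aryl hydrocarbon receptor, at 2.45 ± 0.208 TPM in KO microglia and 0.0750 ± 0.15 TPM in control microglia.

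Of 16 tested partners and inhibitors of the factors, none rose, 4 fell and 12 did not pass (25%, beside 28.4%; median 0.025). Mta2 (-0.45, limma adjusted p = 0.0197), Hdac1 (-0.37, 0.0368) and Rbbp4 (-0.35, 0.0390) encode subunits of the NuRD repressor complex, which SALL proteins recruit. Trib1 (-0.58, 0.0465) encodes an adaptor that directs C/EBPα to degradation.

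Genes known as targets of the factors did not move in 1 direction. Of 17 PU.1 target genes of myeloid cells, 6 rose, 4 fell and 7 did not pass (58.8%, beside 28.4%; median 0.13). Cybb, the catalytic subunit of the phagocyte oxidase, rose to 517 ± 47.1 TPM in KO microglia, against 19.8 ± 5.38 TPM in control microglia (SD, n = 4 each), and Lyz2, a lysozyme, rose by 2.00 (limma adjusted p = 2.9e-05). Itgam, the CD11b integrin chain, fell to 53.6 ± 11.4 TPM in KO microglia, against 391 ± 22.8 TPM in control microglia (SD, n = 4 each), and Csf3r, a cytokine receptor, fell by 1.57. Of 5 tested MAF targets of macrophages none rose, 2 fell and 3 did not pass. These were Mertk, a receptor for the uptake of dead cells (-1.01, adjusted p = 0.00249), and C1qb, a complement chain (-0.24, 0.0310). All 14 homeostatic microglial genes fell, with a median of -2.23. Slc2a5 (-5.11), P2ry12 (-3.95), Olfml3 (-4.38) and Tmem119 (-5.88) had the smallest p.

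Markers of other cells moved with these results in KO microglia. The 11 border-associated macrophage markers summed to between 6218 and 7072 TPM in KO microglia and to between 426.2 and 793.9 TPM in control microglia, and 8 of 11 rose, 1 fell (Cbr2) and 2 did not pass, Cd163 and Lyve1. Monocyte markers summed to 26.6 to 29.6 TPM in KO microglia and 6.1 to 11.4 TPM in control microglia. Of 2 tested, Itga4, an integrin chain, rose to 25.4 TPM in KO microglia, against 0.85 TPM in control microglia, and Ccr2, the chemokine receptor of monocytes, fell to 2.48 TPM in KO microglia, against 7.08 TPM in control microglia. Plac8 and Chil3 were listed at 0 in all KO microglia and Chil3 in all control microglia. Astrocyte markers summed to 168.4 to 221.5 TPM in KO microglia and 376.5 to 699.8 TPM in control microglia. This difference lay in Slc1a3, a glutamate transporter gene. Slc1a3 fell to 36.6 ± 2.36 TPM in KO microglia, against 421 ± 153 TPM in control microglia (SD, n = 4 each, log2 difference -3.42, limma adjusted p = 4.4e-06). Of the other markers tested, 3 passed as higher and 4 did not pass (50% of the 8 tested called, beside 28.4% of all genes). Among the higher ones was Aldh1l1, which reached the filter through KO microglia alone. Sall1 and Sall3, which astrocytes also express, were lower in KO microglia too, and whether astrocyte RNA had a part in this was not tested. Neuron markers summed to 12.4 to 57.6 TPM in KO microglia and 3.4 to 10.1 TPM in control microglia, and of 3 tested 2 rose, Stmn2 and Nefl. Endothelial markers summed to 23.9 to 60.2 TPM in KO microglia and 55.0 to 98.1 TPM in control microglia. The 12 dissociation and early response genes summed to 1471 to 1858 TPM in KO microglia and 691.2 to 1188 TPM in control microglia. Of 10 tested, 6 rose, 1 fell and 3 did not pass; Dusp1 (3.09), Fos (4.28), Ier2 (2.45) and Jun (0.90) rose with the smallest p. The part of other cells and of cell handling in the changes of the factors was not tested.

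For each factor the genes with the nearest profile over the 17 libraries were sought among 13560 genes, by the root mean square difference of log2(TPM + 1) after each gene was centred on its own mean. These are descriptions of likeness, and all points share libraries and scaling. Nearest to Sall1 were Papln, an extracellular matrix gene (0.30), Numb, a regulator of Notch signalling (0.32), and the kinase gene Dyrk4 (0.34). Papln, for example, had mean TPM of 2.33 in KO microglia, 26.3 in control microglia, 2.85 in KO astrocytes and 3.00 in control astrocytes. Nearest to Sall3 were the deubiquitinase gene Usp2 (0.25), the lipid phosphatase gene Plpp1 (0.34) and Arhgap5 (0.41). Usp2 shared the reversal of cell types, with mean TPM of 3.05 in KO microglia and 19.6 in KO astrocytes, against 33.9 in control microglia and 26.3 in control astrocytes.

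Nearest to Mef2a were Plcl2, Commd8 and Fmnl3 (0.23 each), and nearest to Mef2c were Lrmp, Tnfrsf11a, which encodes the receptor RANK, and B2m, the light chain of class I molecules (0.28 each). Spi1 had Mb21d1, the gene of the DNA sensor cGAS (0.23), Csf2rb, a cytokine receptor chain (0.25), and Rbm47, an RNA-binding protein gene (0.26). Irf8 had the leukocyte genes Lcp1 (0.33), Lyl1 (0.34) and Fermt3 (0.35). Maf had D17H6S56E-5 (0.36), Igsf6 (0.39) and Slamf9 (0.46), the last 2 encoding receptors of the immunoglobulin superfamily. Runx1 had Rbm47 (0.28), Sp110, an interferon-inducible nuclear body gene (0.29), and Gpr160 (0.34). Cebpa had Man1a (0.23), a mannosidase of the Golgi, and Prkcd (0.25), a protein kinase C gene.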

How the data were processed

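RNA of microglia and astrocytes was sequenced as paired reads of 61 bp, per the labels. Per the submitters' processing notes, mm10, STAR 2.6.1e and featureCounts 1.6.2 were used, besides cutadapt 1.9.1 and Trim Galore 0.4.2, with no roles stated; annotation, strand setting and multi-mapping are not given in the sources used here. The authors deposited TPM values with 1 decimal, 1 file per library, each summing to about the same total, so read depth and counting error are unknown. The gene body of Mef2a overlaps that of Lysmd4 on the opposite strand, and without the strand setting reads from the shared stretch cannot be told apart. Whether their exons overlap was not examined.

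For each fit, genes reaching 1 TPM in 4 or more of its libraries entered limma 3.58.1 (R 4.3.3) as log2(TPM + 1), with trended variance; tests were two-sided, with p adjusted by Benjamini-Hochberg over all genes tested. Such differences understate changes of genes near 1 TPM. Genes below the filter, and Tgfb1, were tested alone by exact permutation. Labels name animals and not litters, so p-values measure the spread between these animals. Microglia and astrocytes with the same number come from the same animal per the titles, and their deviations from the group means correlated at 0.03 to 0.189 over genes. The pipeline was tested on simulated data. Factors, gene lists and tests were chosen with earlier results of these data known. Named genes were all factors, up to 4 per list with the smallest p past the threshold, or the 1 with the smallest p, and the 3 nearest profiles, apart from a few genes that are not reported here; Mafg, Mafk, Runx2, Runx3, Cebpb, Cebpd, Cbr2, Cd163, Lyve1, Plac8, Chil3, Itga4, Ccr2, Aldh1l1, Slc1a3, Stmn2 and Nefl were named after their values were seen. Alternatives were pseudocounts of 0.1 and 5 TPM, no filter or a filter of 5 TPM, quantile normalization, scaling by the median of ratios, untrended variance, a replicate block, 1 fit over all groups, each kind of control and leaving out each library. Gene positions come from GENCODE M21 and promoter windows from RefSeq, both on GRCm38, the assembly of mm10. Python 3.11.15 with pandas 2.3.3 and matplotlib 3.10.9 made the tables and plots.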

Additional observations from a re-analysis of the deposited data

Results flagged for a closer look

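Among 36 groups of 4 or 5 libraries, 2 had a library that stood apart from the rest, about the number that chance gives at 1 in 20. Sall1 in KO microglia of animal 4 was at 15.8 TPM, above 10.2 to 10.7 TPM in the other KO microglia. Spi1 in control astrocytes of animal 3 was at 0.1 TPM and at 0 TPM in the other control astrocytes, which is 1 step of the last decimal.

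The KO effect differed between the cell types for 3 factors (KO effect in microglia minus KO effect in astrocytes, limma): -3.13 for Sall1, -2.73 for Sall3 and -1.72 for Mef2a on the log2 scale, in all 17 fits that left out 1 library.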

How the results depend on the processing

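The calls on Sall1, Sall3, Mef2a and Maf in microglia held under every alternative that was run, and so did those on Sall1, Sall3 and Mef2a in the difference of KO effects. When 1 library was left out, 4 to 5 factors were called in KO minus control microglia, 0 in astrocytes and 3 in the difference of KO effects. Between cell types the counts were 6 to 9 in control mice and 6 to 8 in KO mice, the lowest where the loss of a microglial library left fewer factors past the filter. The replicate number as a block left 4, 0 and 3 calls in the comparisons of genotype, and 8 and 8 between cell types; it changed no other call than that on Sall3 in control mice. Numbers of KO and control animals are only shared numbers, with correlations of deviations from -0.0756 to 0.176.

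Signs that turned belonged to differences that passed in neither setting. Mef2c in microglia was at -0.084 against control animals 4 and 5, and at -0.014 without KO animal 3 and -0.058 without control animal 2. Sall1 in astrocytes was at 0.087 without KO animal 1. Between cell types in KO mice Sall1 was at 0.12 with quantile normalization. In the difference of KO effects Maf was at -0.29 with a pseudocount of 0.1 TPM and -0.069 with quantile normalization, and between -0.26 and 0.53 when 1 library was left out. There, Runx1 was at -0.48 with a pseudocount of 0.1 TPM. Spi1 was at 0.14 with a pseudocount of 5 TPM, at 0.22 with quantile normalization, and between -0.18 and 0.10 when 1 library was left out. Cebpa in astrocytes was at 0.028 with a pseudocount of 0.1 TPM and at 0.051 without control animal 2. The cause of these turns was not tested. Against control animals 1 and 2 or 4 and 5 alone, the permutation test of Tgfb1 gave p = 0.0667 each, with fewer samples. Quantile normalization moved the median difference of all genes between cell types to 0.11, against -0.19 in control and -0.24 in KO mice without it. Depth is unknown, and factors at 0.1 TPM are at the resolution of the files.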

Other observations

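The library whose title and sample code disagree had 111.3 TPM of Sall1, 22.2 TPM of Sall3, 19.5 TPM of Mef2a, 29.1 TPM of Mef2c, 33.8 TPM of Spi1, 212.2 TPM of Irf8, 304.5 TPM of Maf, 17.8 TPM of Runx1 and 10.7 TPM of Cebpa. It entered no group.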
